A study of Homo sapiens with 41 samples.

Results

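The 19q arm of human chromosome 19 carries long runs of zinc finger genes, and 166 of them are described here, out of 19974 protein-coding genes on chromosomes 1 to 22 and X. They are the protein-coding genes whose symbol starts with ZNF followed by a digit and whose start lies above position 27000000 of chromosome 19 in GRCh38. The rule used only names and positions, none of the measurements. Most such genes encode C2H2 zinc finger proteins with a KRAB domain, which bind DNA, often in transposable elements, and recruit the corepressor TRIM28 and the histone methyltransferase SETDB1. The finger array is usually encoded by one long exon at the 3′ end, and that exon is known in many cells as a site of repressive H3K9 trimethylation, while the promoter of the same gene is typically an active CpG island. The family grew by tandem duplication, so neighbours often share sequence, including sequence in their promoters.

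The cells were MDA-MB-231, an established line from a human breast tumour that lacks hormone receptors and HER2 amplification, and the data ask what inhibition or knockdown of the deacetylase HDAC6 does to chromatin. Peak lists were given for 32 of 41 samples, in 14 groups, and the other 9 samples (inputs and negative controls) were not analysed here. In parental cells, with and without 5 µM of the HDAC6 inhibitor Nexturastat A for 2 days, HDAC6 and acetylated histone H3 (titled Pan-acetyl, with an antibody labelled as against H3 acetylated at several lysines) were mapped by ChIP in 2 samples a group, RNA polymerase II (PolII) by ChIP in 2 and open chromatin by ATAC in 3. In cells with a control hairpin (shCtrl) or a hairpin against HDAC6 (shHDAC6), PolII was mapped in 2 samples a group and ATAC in 3, and HDAC6 ChIP was made in 2 shHDAC6 samples. HDAC6 was also mapped in 2 untreated samples by CUT&Tag, in which an antibody tethers the cutting enzyme. CUT&Tag replicate 2 carries a hairpin-type prefix in its peak names and was kept under its control label. HDAC6 ChIP replicate 1 of control and inhibitor used a CST antibody and replicate 2 a Novus antibody, so antibody and replicate number cannot be told apart. Both knockdown and both CUT&Tag samples used Novus. The labels do not say that replicates came from separate cultures, so each p-value covers only how far these lists differ, and that spread may be technical.

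The number of peaks in a list ran from 25878 to 79666 in ATAC, from 19519 to 31198 in PolII, from 1418 to 61186 in acetylated H3 and from 235 to 63833 in HDAC6 ChIP, with 14458 and 22481 in CUT&Tag. The files hold no read counts, so depth is unknown and the absence of a peak says only that none was called. The library labelled Nexturastat A with the Novus antibody held the 235 peaks, and its peak names carry the prefix that the shCtrl PolII lists carry. It was kept in its labelled group, and the count of members that lost HDAC6 is given with and without it. The other HDAC6 results of the inhibitor comparison include it. Of 8 genes that mark MDA-MB-231 cells, 7 had PolII at the start in all 8 PolII lists. Only 3 were open in all 12 ATAC lists, though none lacked an ATAC peak in every list. CD44 and EGFR were open in 6 ATAC lists and in no hairpin list, and CD44 had no PolII in either shCtrl list. Markers of other cell types were mixed as well. Of 7 luminal markers none was open in all 12 ATAC lists and CDH1 in none, but FOXA1 and KRT18 were open in 9 with PolII in all 8 and GATA3 was open in 10. Of 5 leukocyte markers 2, PTPRC among them, were open in no list and SPI1 was open in 12. Of 3 neuronal markers NEUROD1 was open in none, RBFOX3 in 10 and SYP in 11. The part of other cells in these results was not tested. The HDAC6 gene itself had ATAC peaks in all 12 lists and PolII in all 8, including those of the knockdown, which acts on the RNA and is not checked by these assays.

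A gene start is any start annotated by RefSeq in GRCh38.p14, and a start peak is a called peak that overlaps the 1 kb on either side of it by at least 1 bp. An annotated start was found for 146 members. For the other 20 both gene ends were used. Of the 146, 31 had more than 1 start, and 20 members had a start within 1 kb of that of another member, so a single peak can count for both. Members ranged from 2469 to 487995 bp in length, with a median of 22032.5 bp. The strength of a peak is the authors' fold enrichment over background. It is given with its percentile among the peaks of its own list, because percentiles from lists of different length describe rank and not change.

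The promoters of 3 members that carry the sequence features of the set are shown first, each as the 150 bases before the start, 5′ to 3′ on the strand of the gene, with 2 motifs in capitals. ZNF527 (chr19:37370949-37371098, plus strand) had the highest mean ATAC percentile of the set, ZNF180 (chr19:44500523-44500672, minus strand) the highest mean PolII percentile, and ZNF230 (chr19:44002807-44002956, plus strand) is one of 3 members that gained PolII after knockdown.
ZNF527: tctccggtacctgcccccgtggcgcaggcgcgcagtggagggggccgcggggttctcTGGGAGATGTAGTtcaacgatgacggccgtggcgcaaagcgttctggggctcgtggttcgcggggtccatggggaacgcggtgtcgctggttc
ZNF180: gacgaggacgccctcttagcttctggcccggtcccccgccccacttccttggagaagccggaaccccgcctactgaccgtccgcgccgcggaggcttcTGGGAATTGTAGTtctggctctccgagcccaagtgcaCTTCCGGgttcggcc
ZNF230: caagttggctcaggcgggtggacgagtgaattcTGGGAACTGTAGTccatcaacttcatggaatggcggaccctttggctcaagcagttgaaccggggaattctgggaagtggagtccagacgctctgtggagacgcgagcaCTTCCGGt

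The capitals mark CCGGAAG or its reverse complement CTTCCGG, the core bound by ETS factors, and a gapped motif, TGGGA and TGTAGT with any 2 bases between them, in either orientation. The gapped motif resembles the known site of ZNF143, a zinc finger activator of many promoters. It was added to the search after these sequences had been seen, whereas the other 6 motifs came from the list used for all promoters. All sequences are RefSeq's for GRCh38.p14. ZNF180 and ZNF230 hold both motifs and ZNF527 the gapped one, whose first base lies 93 bases upstream of the start in ZNF527, 52 in ZNF180 and 117 in ZNF230. The ETS core begins 15 bases upstream of the start in ZNF180 and 8 in ZNF230.

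Both motifs were frequent in the set. Over 300 bases, from 250 before to 50 after the first start, CCGGAAG was found on either strand in 71 of 146 member promoters, 48.6%, against 14.1% of 15812 promoters of all genes. The gapped motif was found in 25, 17.1%, against 2.13% of all promoters, and 7.42% of the 337 promoters that hold it belong to the set. Either motif was present in 88 members, 60.3%, against 15.9% of all promoters, and 8 members held both. The 6-letter NRF1 core TGCGCA followed with 21.2% against 10.8%. The TATA box TATAAA was rare, 1.37% against 9.75%. The CCAAT box CCAAT (39.7% against 36.4%), the YY1 motif AAGATGG (8.22% against 6.36%) and the AP-1 motif TGACTCA (4.11% against 3.62%) were near the share of all promoters. None of these motifs contains another. Members had a median of 22.5 CpG dinucleotides in the 300 bases, against 22 in all promoters. Because duplicated neighbours share sequence, promoters of the set are not independent of each other, and these shares are a description. A match of letters is not evidence that a factor binds.

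**Figure D1:**
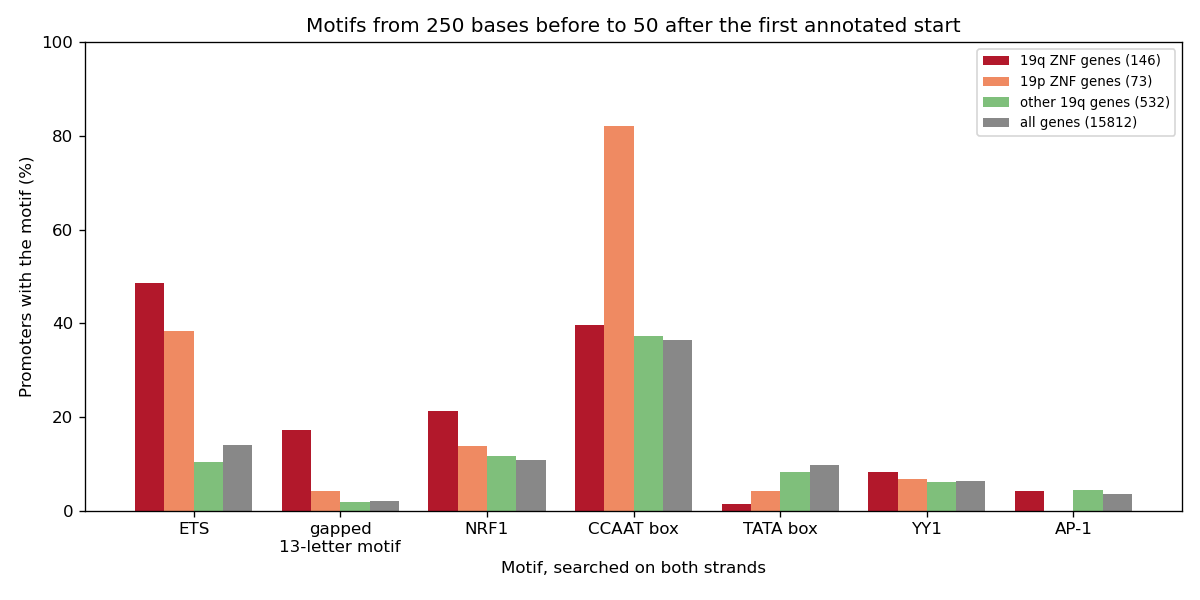
Bars show the percent of promoters that hold each motif on either strand (y axis), for the 19q ZNF genes, the 19p ZNF genes, the other genes of 19q and all genes, with the number of promoters in the legend. The ETS core reaches 48.6% and the gapped 13-letter motif 17.1% of 19q ZNF promoters, and the CCAAT box is highest in the 19p ZNF genes at 82.2%.

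The zinc finger genes of 19p, a separate cluster of 84 genes, shared one of these features and not the others to the same degree. CCGGAAG was found in 38.4% of 73 promoters there, the gapped motif in 4.11% and CCAAT in 82.2%. Other genes of 19q were near the level of all genes, with 10.3% for CCGGAAG and 1.88% for the gapped motif. Within the set, the gapped motif was found in 22 of 95 promoters that were open in all 12 ATAC lists, 23.2%, in 2 of 37 that were open in some and in 1 of 14 that were open in none. CCGGAAG was found in 51.6%, 48.6% and 28.6% of the same groups. The gapped motif was added after seeing ZNF527, ZNF180 and ZNF230, which hold it and were open in all 12 ATAC lists. Its shares by openness thus describe a motif picked from open members and are no independent support.

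Starts of the 19q ZNF genes were open and carried PolII more often than those of other genes. An ATAC peak lay at the start of 105 members, 63.3%, in all 12 ATAC lists, against 43.2% of all genes. PolII lay at 108 members, 65.1%, in all 8 PolII lists, against 53.7% of all genes. Both held for 88 members, 53.0% against 40.5%. At the other extreme 17 members, 10.2% against 25.4% of all genes, had no ATAC start peak in any list, and 22, 13.3% against 28.2%, had no PolII. ATAC percentages were 84.9, 81.3 and 78.9 in the 3 control lists, 83.7, 79.5 and 80.7 with Nexturastat A, 77.1, 75.9 and 73.5 with shCtrl and 80.1, 72.9 and 77.1 with shHDAC6. Genes outside the set lay between 55.3% and 62.9% in the same 12 lists, below the members in each of them. PolII percentages of members were 73.5 and 85.5 in control, 74.1 and 83.7 with the inhibitor, 78.9 and 77.1 with shCtrl and 80.1 and 78.9 with shHDAC6. The second list was above the first in both parental groups. ZNF genes of other chromosomes were as often open (61.0% of 267 in all 12 ATAC lists) and had PolII in all 8 lists more often (74.2%), while 19p ZNF genes had 47.6% and 36.9%.

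**Figure D2:**
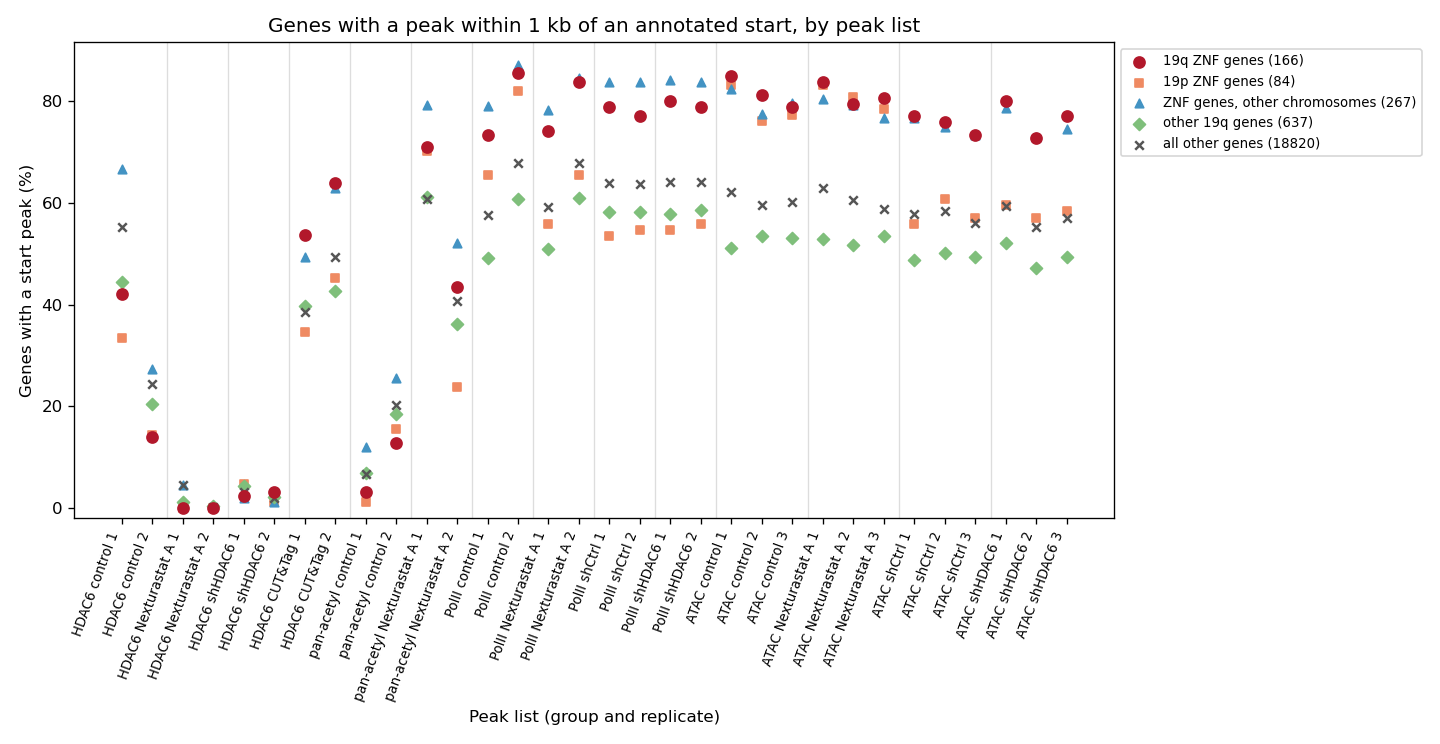
Each point is the percent of genes of one set with a peak within 1 kb of a start (y axis) in one peak list (x axis, group and replicate). In all 12 ATAC lists the 19q ZNF genes, between 72.9% and 84.9%, lie above the other genes, and in the first HDAC6 control list they lie below, at 42.2%.

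Where the start was open, the summit of the strongest ATAC peak lay just upstream of it. The median distance in members was between 47 and 66.5 bp upstream over the 12 lists, which places it inside the stretch printed above. It lay between 46 and 79 bp upstream for other genes. ZNF527 had ATAC fold enrichments of 13.7, 16.1 and 12.2 in the control lists, 12.1, 17.4 and 14.1 with Nexturastat A, 13.2, 12.4 and 10.6 with shCtrl and 10.3, 12.9 and 12 with shHDAC6. Its values with and without either treatment overlapped. After ZNF527, whose mean percentile was 97.7, the highest were ZNF226 (97.2), ZNF772 (97.2), ZNF565 (96.9) and ZNF146 (96.9). ZNF565 and ZNF146 point away from each other and share this ATAC peak.

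ZNF180 led for PolII, with fold enrichments of 7.07 and 14.1 in control, 7.39 and 19.9 with the inhibitor, 9.47 and 10.2 with shCtrl and 7.17 and 7.41 with shHDAC6. The parental pairs differed by replicate number more than by treatment, and both shHDAC6 values lay below both shCtrl values. Folds of separate lists were not scaled to each other, so this order is a description of ranks within lists that put ZNF180 at percentiles of 97.0 and 96.3 with shCtrl and 82.0 and 80.8 with shHDAC6. ZNF546 (mean percentile 90.8), ZNF543 (89.8), ZNF460 (89.1) and ZNF497 (88.5) followed ZNF180 (92.6).

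Open and closed members were spread unevenly along the arm. With neighbours less than 1 Mb apart joined, the members fell into 11 runs, of which 4 hold at least 24 members. In the run from ZNF565 to ZNF573 (chromosome 19, 36182060 to 37779586), 24 of 26 members, 92.3%, were open in all 12 ATAC lists. In the run from ZNF628 to ZNF446 (55476617 to 58489533) it was 42 of 60, 70%, and in that from ZNF575 to ZNF296 (43530835 to 45076478) 14 of 24, 58.3%. The run from ZNF175 to ZNF331 (51571283 to 53580269) had the lowest share of these, 17 of 41, 41.5%. PolII in all 8 lists varied less between these runs, with 18 of 26 members, 43 of 60, 14 of 24 and 23 of 41 in the same order.

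**Figure D3:**
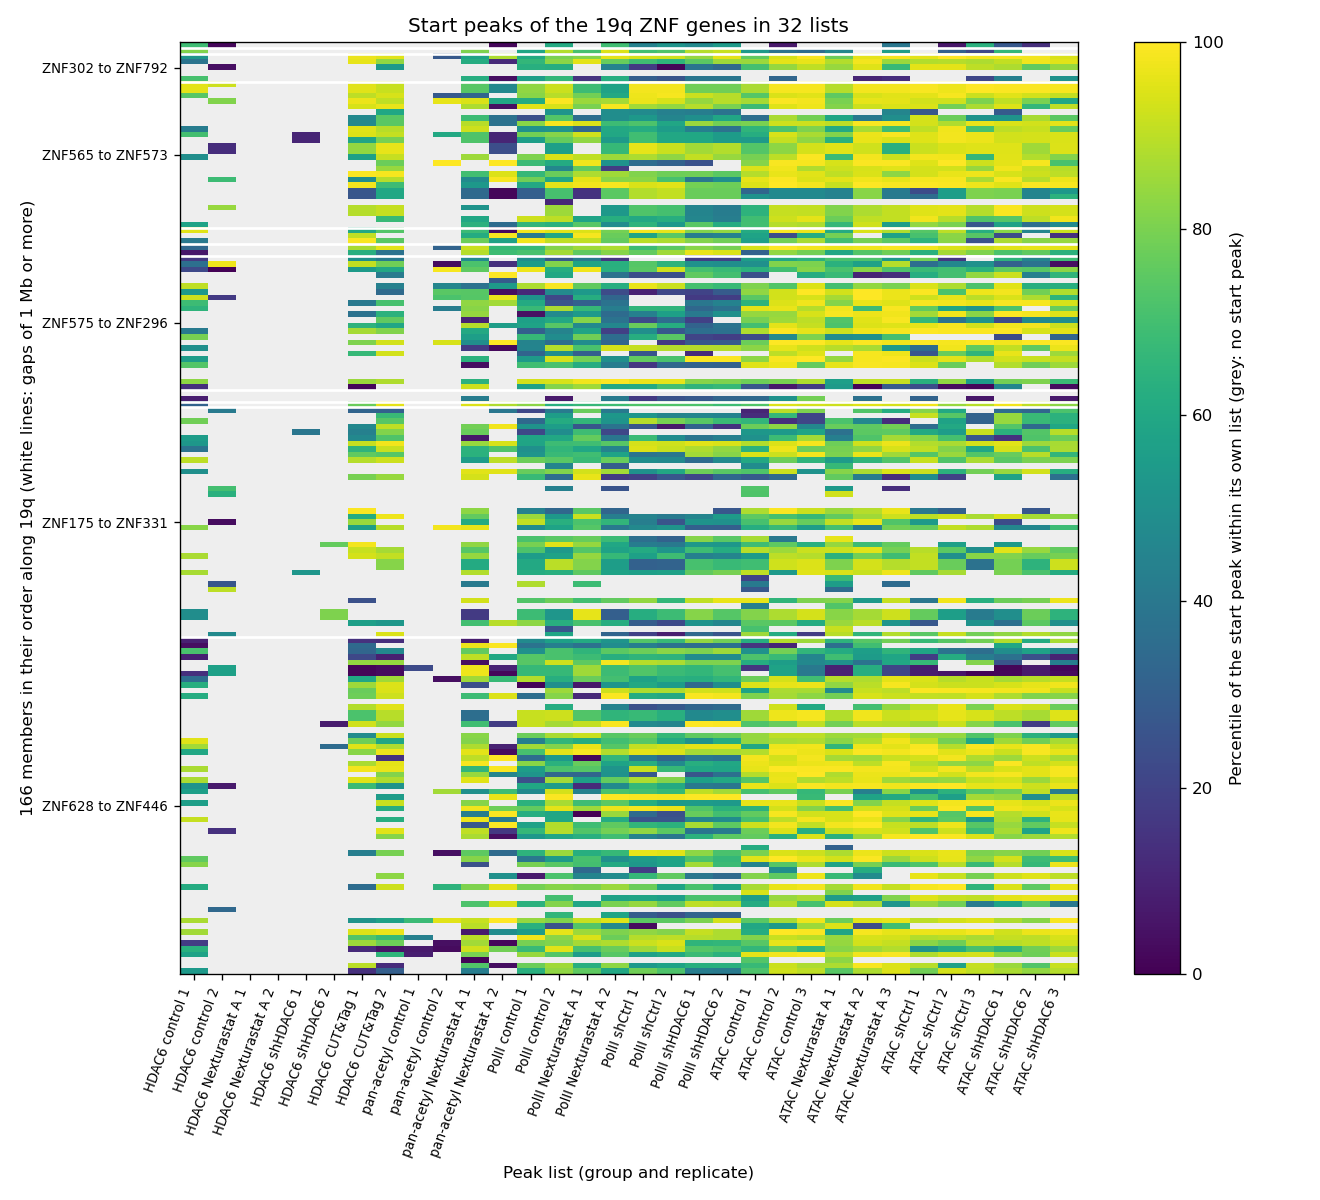
Rows are the 166 members in their order along 19q and columns the 32 peak lists. Colour gives the percentile of the start peak within its own list and grey means that no start peak was called, so that the 13 members without a start peak in any list appear as grey lines, and the 2 HDAC6 Nexturastat A columns are grey throughout.

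A minority of members was closed in every list. Neither ATAC nor PolII had a start peak in any of the 20 lists at 15 members, 9.04%, against 21.8% of all genes. The first 10 of them by position are ZNF30, ZNF404, ZNF285, ZNF229, ZNF541, ZNF610, ZNF534, ZNF578, ZNF600 and ZNF677. No member of the run from ZNF565 to ZNF573 is among the 15. ZNF229 (chr19:44448579-44448728, minus strand) and ZNF677 (chr19:53254874-53255023, minus strand) had no start peak in any of the 32 lists, and their upstream bases are shown for comparison with the open promoters above.
ZNF229: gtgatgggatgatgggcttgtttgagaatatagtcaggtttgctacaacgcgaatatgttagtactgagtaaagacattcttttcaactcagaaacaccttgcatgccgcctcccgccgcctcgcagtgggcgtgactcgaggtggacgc
ZNF677: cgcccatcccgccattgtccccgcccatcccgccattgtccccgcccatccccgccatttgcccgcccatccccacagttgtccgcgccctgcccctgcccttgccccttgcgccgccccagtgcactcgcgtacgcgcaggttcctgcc
Neither stretch holds one of the 2 motifs, so no letter is in capitals. ZNF229 has 9 CpG in these 150 bases and ZNF677 has 15, against 18 in ZNF527 and 8 in ZNF230. DNA methylation was not analysed here. At 7 more members ATAC was called in 2 of 12 lists and PolII in none: ZNF528, ZNF415, ZNF665, ZNF525, ZNF671, ZNF418 and ZNF132. Those 2 lists were replicate 1 of control and replicate 1 of Nexturastat A in each case. In all, 9 members had this pattern, 5.42%, against 3.20% of all genes. PolII showed a like pattern by number, with a start peak in replicate 2 of control and inhibitor and in neither replicate 1 at 18 members, 10.8%, against 9.12%.

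Away from starts members had ATAC peaks less often than other genes in all 12 lists. ATAC peaks in the gene body and more than 1 kb from any annotated start were found in 20.5%, 6.16% and 4.79% of the 146 members in the control lists and in 44.5%, 34.1% and 36.2% of other genes. They lay between 3.42% and 20.5% of members and between 23.5% and 47.0% of other genes over all 12 lists. The last 5 kb of the gene, which holds the finger exon in most such genes, had an ATAC peak away from starts in at most 6.85% of members in any list. Exon positions were not used, so the last 5 kb stands in for the 3′ exons. Body peaks were not scaled for gene length. Finger exons of paralogs can be near-identical, and how reads that map to several places were treated is not given in the sources used here.

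**Figure D4:**
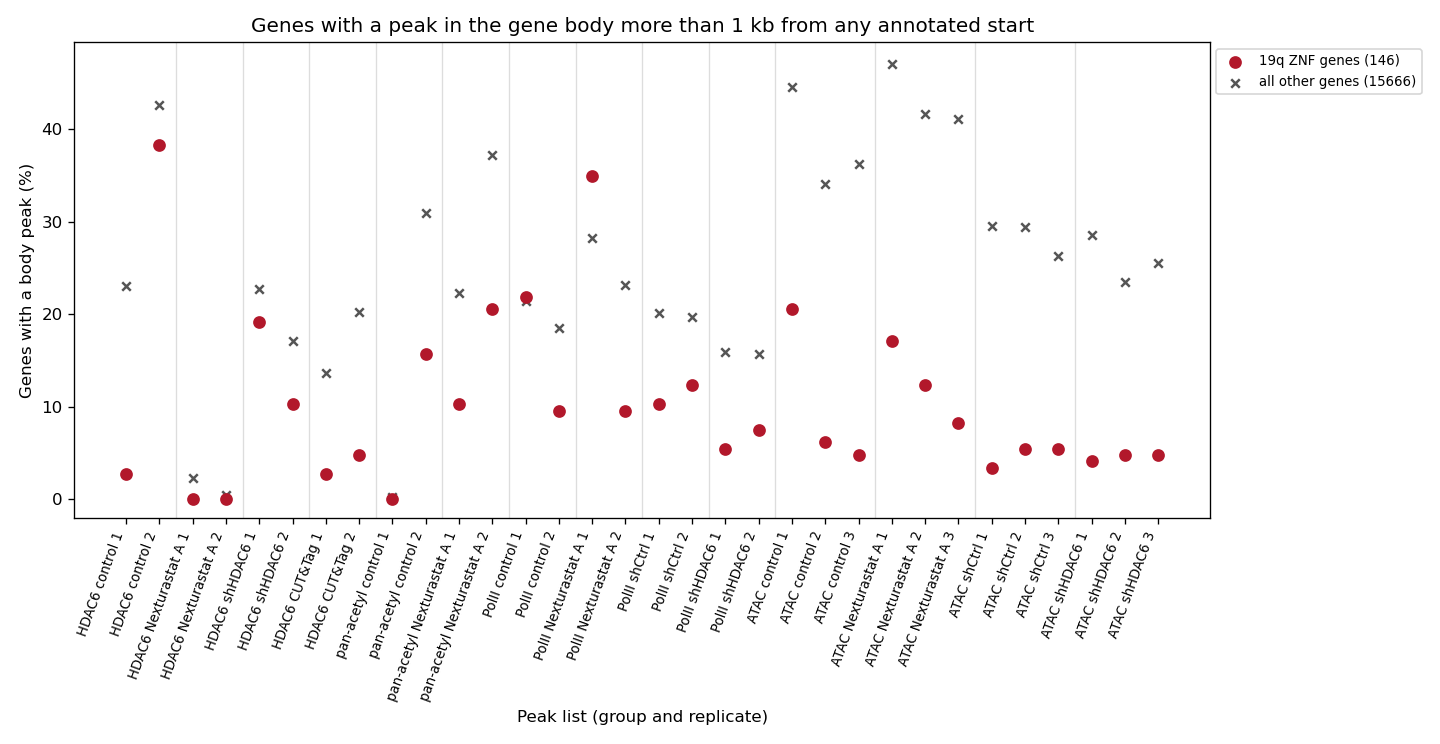
Each point is the percent of genes with a peak in the gene body more than 1 kb from any annotated start (y axis) in one peak list (x axis), for the 146 members with an annotated start and 15666 other genes. In the 12 ATAC lists members lie at 3.42% to 20.5%, below other genes, and in PolII Nexturastat A replicate 1 they lie above, at 34.9%.

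The question of HDAC6 on chromatin was asked in untreated cells first. Starts of the set were covered by HDAC6 in CUT&Tag and less often in ChIP. The start peak was called in 53.6% and 63.9% of members by CUT&Tag, against 38.7% and 49.3% of other genes. It was called in 42.2% of members by ChIP with the CST antibody and in 13.9% with the Novus antibody, against 55.0% and 24.2% of other genes. Both CUT&Tag lists marked 82 members, 49.4%, against 36.6% of all genes, and both control ChIP lists marked 7, 4.22%, against 16.9%. The members thus lay above other genes in both CUT&Tag lists and below them in both ChIP lists.

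Restricted to open starts, members stayed below other genes in both ChIP lists, and in both CUT&Tag lists the sign turned, from above to slightly below. Among the 126 members open in all 3 control ATAC lists, the CST list marked 66, 52.4%, against 85.3% of 10383 other open genes, and the Novus list marked 16, 12.7%, against 28.5%. CUT&Tag marked 84 and 99 of the 126, 66.7% and 78.6%, against 69.0% and 82.8%. PolII of control replicate 2 lay at all 126. The 19p ZNF genes were marked in 45.2% of 62 open starts by the CST list, whereas ZNF genes of other chromosomes were marked in 81.2% of 192. No test of these differences between sets was made.

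**Figure D5:**
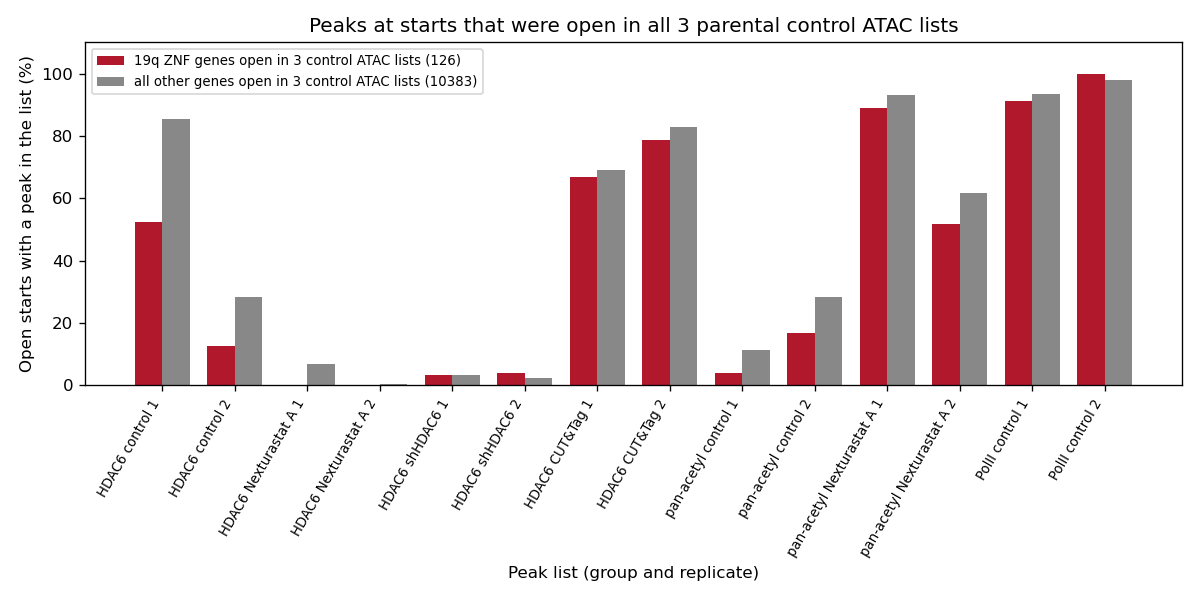
Bars give the percent of starts open in all 3 parental control ATAC lists (y axis) that also have a peak in each ChIP or CUT&Tag list (x axis), for 126 members and 10383 other genes. In the first HDAC6 control list the bars stand at 52.4% and 85.3%, and in CUT&Tag replicate 1 at 66.7% and 69.0%.

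HDAC6 was called in all 4 untreated lists at 5 members, 3.01%, against 9.32% of all genes: ZNF565, ZNF576, ZNF772, ZNF428 and ZNF580. ZNF565 had the highest mean percentile, 93.9, but over 2 places. The CST list and both CUT&Tag lists had their peak at the start it shares with ZNF146 (position 36215084), while the Novus list had it at a start further upstream (36245928), where no ATAC list had a peak. ZNF576 had folds of 2.96 with CST, 2.93 with Novus and 4.29 and 3.97 in CUT&Tag, all 4 at the same start. Its upstream bases are shown because it is the strongest member with HDAC6 at 1 place in every untreated list (chr19:43596242-43596391, plus strand).
ZNF576: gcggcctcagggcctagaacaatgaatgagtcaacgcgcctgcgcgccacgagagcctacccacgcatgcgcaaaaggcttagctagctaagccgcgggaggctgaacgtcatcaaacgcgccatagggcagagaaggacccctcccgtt
Neither of the 2 motifs lies in this stretch, which holds 14 CpG. ZNF772 (3.08, 2.14, 3.62 and 3.44), ZNF428 (2.86, 1.92, 3.41 and 3.57) and ZNF580 (2.76, 2.32, 2.35 and 2.55, in the order CST, Novus and the 2 CUT&Tag lists) had folds between 1.92 and 3.62. TRIM28, the corepressor that KRAB domains recruit, had folds of 6.03 and 6.06 in CUT&Tag and of 2.78 and 2.02 in ChIP.

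The inhibitor comparison asked whether HDAC6 left these starts. No member had an HDAC6 start peak in either Nexturastat A list, against 70 and 23 members in the control lists (46.5 ± 33.2, SD, n = 2). The difference of 46.5 members could not reach significance (p = 0.33 by a two-sided exact permutation test, which cannot go lower with 2 lists against 2). By the rule of a peak in every control list and in no treated list, 7 members lost HDAC6, 4.22% against 15.4% of all genes, and none gained it, against 0% of all genes. They were ZNF565, ZNF576, ZNF155, ZNF580, ZNF536, ZNF772 and ZNF428. At ZNF565 the CST and Novus control lists had their peaks at different starts, as given above, so no single place was marked by both. ZNF536, a neural zinc finger gene, and ZNF155 had no CUT&Tag start peak. The 7 are all of the members that both control lists marked, and of all genes so marked 91.3% were lost. List length moved with this result, from 28590 and 63833 peaks in control to 3256 and 235 with the inhibitor. With every list cut to 235 peaks no member was lost. Few starts of any gene can be called in lists that short, so this cut says little about the members. The count of lost members was 7 without the library labelled Nexturastat A replicate 2, 23 without control replicate 1 and 70 without control replicate 2. As no member had a peak in either inhibitor list, these counts only repeat how many members the remaining control lists marked. Shares of all genes are not given for them. Members went from 11.6 ± 1.70 percentage points below other genes in control to 2.32 ± 3.0 below with the inhibitor (SD, n = 2 each), a difference of 9.27 points (exact permutation p = 0.33). With no member marked in either inhibitor list, the value with the inhibitor reflects other genes alone. The difference thus does not show members moving towards other genes. That difference was 0.0631 points with lists cut to 235 peaks and 0.119 with only peaks of −log10 q of at least 5. The difference in members was 0 under both, and under the q floor 0% of all genes lost HDAC6.

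The HDAC6 peaks called in the knockdown lists lay at other members. The Novus list of control cells marked 23 members, and the 2 knockdown lists marked 4 (ZNF790, ZNF345, ZNF350 and ZNF160) and 5 (ZNF468, ZNF765, ZNF765-ZNF761, ZNF71 and ZNF460), 2.41% and 3.01% of the set against 3.11% and 1.98% of other genes. None of the 9 was among the 23, whereas 30.2% of the 620 genes in the first knockdown list and 41.3% of the 397 in the second were also in the Novus control list. ZNF765 and ZNF765-ZNF761 share a peak, so the 9 are not separate places. Folds were 2.09 at ZNF345 and 3.13 at ZNF765, and the lowest −log10 q in the 2 knockdown lists was 0.00981 and 0. The lowest −log10 q in the Novus control list was 0 as well, and its folds were 1.92 at ZNF428 and 2.93 at ZNF576. Whether the peaks of the control or the knockdown lists hold HDAC6 was not tested. There was 1 control list of this antibody and it came from parental cells, so no test was made.

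Acetylated H3 appeared at many starts with the inhibitor. A start peak was called at 5 and 21 members in control and at 118 and 72 with Nexturastat A. Both treated lists lay above both control lists, 95 ± 32.5 against 13 ± 11.3 members (SD, n = 2 each, two-sided exact permutation p = 0.33, the smallest possible). In 46 members, 27.7%, the peak was gained, against 20.4% of all genes, and in none was it lost, against 0%. Of the 142 members without a control peak 32.4% gained one, against 26.8% of all such genes. The excess over other genes went from 5.61 ± 2.65 points below to 6.35 ± 5.06 points above, a difference of 12 points (exact permutation p = 0.33). Among starts open in all 3 control ATAC lists, however, members lay below other genes in every acetylated H3 list. The shares were 3.97% and 16.7% of 126 members in control, against 11.2% and 28.3% of 10383 other genes. With the inhibitor they were 88.9% and 51.6%, against 93.0% and 61.8%. List lengths moved the same way within each pair, from 1418 to 28473 peaks in replicate 1 and from 41411 to 61186 in replicate 2. With every list cut to 1418 peaks 1 member was gained, the difference in members fell to 7 and that in excess to 3.63 points. Lists that short can hold few starts of any gene. With only peaks of −log10 q of at least 5 the difference was 15 members (exact permutation p = 0.667) and the excess changed by -0.215 points. No member was gained under that floor, against 0% of all genes. Without Nexturastat A replicate 2 the count of gained members was 95, for which the share of all genes is not given.

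The 8 strongest gains were ZNF579, ZNF766, ZNF304, ZNF473, ZNF614, ZNF613, ZNF550 and ZNF230. ZNF579 had folds of 5.09 and 3.24 and percentiles of 97.0 and 99.2, and no peak in either control list. ZNF766 had folds of 4.91 and 2.79 and ZNF304 of 4.50 and 3.66. ZNF473, which encodes a partner of the U7 particle in histone RNA processing, had 4.84 and 2.58. ATAC start peaks were called in all 12 lists at ZNF766, ZNF304, ZNF473, ZNF614, ZNF550 and ZNF230, in 11 at ZNF613 and in 5 at ZNF579. The weakest gain of the 46, ZNF227, had a mean percentile of 9.66. Gains lay in most runs. Both inhibitor lists marked 63 members, which are the 46 gained and others that also had a control peak. By run the marked members were 13 of 26 from ZNF565 to ZNF573 and 27 of 60 from ZNF628 to ZNF446. They were 8 of 24 from ZNF575 to ZNF296 and 6 of 41 from ZNF175 to ZNF331.

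PolII at the starts did not differ between inhibitor and control beyond the spread of lists. It was called at 122 and 142 members in control and 123 and 139 with Nexturastat A, 132 ± 14.1 against 131 ± 11.3 (SD, n = 2 each, two-sided exact permutation p = 1, with 0.33 the smallest possible). No member lost it, against 0.035% of all genes, and none gained it, against 0.28%. In all 4 lists it lay at 119 members. Within replicate 1 the change was 1 member more and within replicate 2 it was 3 fewer.

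In the last 5 kb of the gene more members had PolII in the inhibitor list of each pair, while over the whole body this held for replicate 1 alone (21.9% to 34.9%, against 9.59% in both lists of replicate 2). The last 5 kb, away from starts, had a PolII peak in 21 members of control replicate 1 and 35 of inhibitor replicate 1, of which 19 were the same, and in 6 and 10 of replicate 2, of which 6 were the same. The rise within pairs was from 14.4% to 24.0% and from 4.11% to 6.85%, beside 9.67% to 14.4% and 5.20% to 10.2% of other genes. Replicate number separated the lists as much as the treatment did, and 9.25 ± 7.26% against 15.4 ± 12.1% gave an exact permutation p of 0.667. Under the rule for all lists 1 member gained PolII in the last 5 kb, ZNF324, 0.685% against 1.37% of all genes, and none lost it, against 0.139%. In the whole body ZNF324 was again the 1 member gained, 0.685% against 1.95%, and none was lost, against 0.316%. Coverage of the whole gene by PolII peaks was highest in short members. A median of 100% of ZNF580 (2469 bp), 80.9% of ZNF579 (4075 bp), 57.0% of ZNF581, 47.0% of ZNF296 and 39.6% of ZNF524 was covered over the 8 lists.

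The knockdown comparison for PolII showed 3 members gained at the start. It was called at 131 and 128 members with shCtrl and 133 and 131 with shHDAC6, 129.5 ± 2.12 against 132 ± 1.41 (SD, n = 2 each, two-sided exact permutation p = 0.667). ZNF230, ZNF575 and ZNF155 gained PolII, 1.81% against 0.791% of all genes, and none lost it, against 0.576%. ZNF230 had no PolII peak in either shCtrl list and folds of 3.75 and 4.18 with shHDAC6. ZNF575 had 2.66 and 2.71 and ZNF155 had 2.61 and 2.67, with none in shCtrl. These were weak peaks, with percentiles of 39.6 and 44.5 for ZNF230 and 17.0 to 19.3 for the other two. With only peaks of −log10 q of at least 5 kept, 18 members were gained, 10.8% against 2.84% of all genes, the difference was 21.5 members and that in excess 9.72 points (exact permutation p = 0.33 for both, the smallest possible). This floor acted on 1 side over all genes. It gave 568 gained and 72 lost, beside 158 gained and 115 lost without it. Depth is unknown, and how unequally the floor cut the lists was not tested.

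The same 3 genes carried PolII in parental cells. In untreated parental cells ZNF230 had PolII folds of 4.41 and 3.12, ZNF575 of 3.88 and 3.20 and ZNF155 of 3.96 and 2.87, and all 3 had peaks in both Nexturastat A lists. They were absent from the shCtrl lists alone among the 8. Set against parental control, which uses the same shCtrl lists, 6 members lacked PolII in both shCtrl lists, 3.61% against 1.23% of all genes: ZNF230, ZNF575, ZNF808, ZNF155, ZNF350 and ZNF175. ZNF350 encodes ZBRK1, a KRAB repressor known as a partner of BRCA1. ZNF350 and ZNF175 had no PolII with shHDAC6 either, and ZNF808 had it in 1 of the 2 lists, with a fold of 3.03. No member gained PolII in shCtrl cells, against 0.601% of all genes. ATAC stayed called at ZNF230 in every shCtrl and shHDAC6 list, with folds between 9.79 and 12.4. At ZNF155, for which no annotated start was available, the peak lay at the lower-coordinate end alone in 19 of 23 lists with a peak, at the higher end alone in 2 and at both in 2. ZNF575 (chr19:43533038-43533187, plus strand) is shown beside the ZNF230 stretch printed earlier.
ZNF575: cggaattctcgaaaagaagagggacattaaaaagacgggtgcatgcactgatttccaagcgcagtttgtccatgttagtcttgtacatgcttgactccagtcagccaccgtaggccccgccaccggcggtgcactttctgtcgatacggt
Neither of the 2 motifs is in it, unlike ZNF230, and its GC content is 52.0% over the 150 bases, against 56.0% for ZNF230 and 68.7% for ZNF527.

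In gene bodies fewer members had PolII in both knockdown lists than in both shCtrl lists. PolII away from starts was called in 10.3% and 12.3% of members with shCtrl and 5.48% and 7.53% with shHDAC6, 11.3 ± 1.45% against 6.51 ± 1.45% (SD, n = 2 each; exact permutation p = 0.33, the smallest possible). The difference in excess over other genes, 0.649 points lower, was smaller (exact permutation p = 0.667), since other genes fell from 20.1% and 19.7% to 15.9% and 15.7%. Body peaks were lost from 7 members, 4.79% against 3.89% of all genes: ZNF507, ZNF565, ZNF146, ZNF574, ZNF576, ZNF787 and ZNF497. None was gained, against 1.24%. ZNF565 and ZNF146 overlap on opposite strands and share their body peak. In the last 5 kb ZNF574, ZNF576 and ZNF497 lost PolII, 2.05% against 2.43%, and no member gained it, against 0.626%. Of the 7, ZNF507, ZNF576 and ZNF497 had gained the body peak in shCtrl over parental cells, a comparison that shares the shCtrl lists, where 6 members gained one, 4.11% against 3.81% of all genes. In that comparison ZNF160 and ZNF865 lost a body peak, 1.37% against 1.78%. In the last 5 kb ZNF576, ZNF497 and ZNF324 gained PolII, 2.05% against 2.87%, and ZNF865 and ZNF787 lost it, 1.37% against 0.342%.

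Accessibility of the starts differed by less than the spread between lists in both comparisons. With Nexturastat A 139, 132 and 134 members were open, against 141, 135 and 131 in control, 135 ± 3.61 against 136 ± 5.03 (SD, n = 3 each, two-sided exact permutation p = 0.9, with 0.1 the smallest possible). 1 member was lost, ZNF577, 0.602% against 0.0501% of all genes, and none was gained, against 0.0501%. ZNF577 was called in each control list with folds of 4.58, 6.82 and 4.54 (percentiles 12.6, 66.8 and 20.9) and in no inhibitor list. It was called in all 6 hairpin lists, with folds of 8.79, 6.71 and 4.73 for shCtrl and 8.15, 6.41 and 6.16 for shHDAC6. PolII lay at ZNF577 in replicate 2 of both parental groups, with folds of 6.25 in control and 5.74 with the inhibitor, and in neither replicate 1. With lists cut to equal length the loss was no longer called. Without Nexturastat A replicate 2 the count was 2, for which the share of all genes is not given. The upstream bases of ZNF577 (chr19:51887952-51888101, minus strand) are given because it was the 1 member that lost ATAC under the rule.
ZNF577: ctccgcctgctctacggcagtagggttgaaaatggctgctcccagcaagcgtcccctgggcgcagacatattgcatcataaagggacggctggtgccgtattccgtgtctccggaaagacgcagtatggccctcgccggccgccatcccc
It holds neither of the 2 motifs and 12 CpG.

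After knockdown 133, 121 and 128 members were open, against 128, 126 and 122 with shCtrl, 127 ± 6.03 against 125 ± 3.06 (SD, n = 3 each; exact permutation p = 0.8). No member was lost, against 0.17% of all genes, or gained, against 0.195%, and 111 were open in all 6 lists. Parental and shCtrl cells differed by more: 10.3 fewer members were open in shCtrl on average (exact permutation p = 0.1, the smallest possible), all 3 shCtrl lists lying below all 3 parental ones. ATAC lists of shCtrl were also shorter, 28883 to 32998 peaks against 42113 to 74018, and that part was not tested. The difference in excess over other genes was 2.95 points lower (exact permutation p = 0.2). ZNF544 and ZNF234 were lost, 1.20% against 1.45% of all genes. ZNF544 had folds of 8.38, 6.0 and 8.78 in parental control and none in any of the 6 hairpin lists, while ZNF234 was open again in 2 of 3 shHDAC6 lists. None was gained, against 0.295%.

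The other marks moved in few gene bodies of the set. Acetylated H3 was gained with the inhibitor in the body of 4 members, ZNF599, ZNF227, ZNF765 and the readthrough gene ZNF765-ZNF761, 2.74% against 3.23% of all genes, and lost in none, against 0.00632%. In the last 5 kb no member gained it, against 0.31%, or lost it, against 0%. HDAC6 body peaks were lost from no member, against 14.4% of all genes, and last 5 kb peaks from none, against 0.487%. ATAC body peaks were gained with the inhibitor at ZNF793, 0.685% against 0.316%, and lost at none, against 0.0316%. In the last 5 kb no member gained an ATAC peak with the inhibitor, against 0.108%, or lost one, against 0.0316%. After knockdown no member lost an ATAC body peak, against 0.411%, or gained one, against 0.215%, and in the last 5 kb none was lost, against 0.139%, or gained, against 0.0569%. Between shCtrl and parental cells ATAC was lost in the last 5 kb of ZNF787, 0.685% against 1.25%, and gained in none, against 0.278%. No body peak was lost there, against 3.88%, or gained, against 0.392%.

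The genes of the corepressor machinery with which KRAB proteins work were examined as a separate list. Of 25 such genes 18 were open in all 12 ATAC lists, beside 43.2% of the genome's genes, and PolII lay at 22 in all 8, beside 53.7%, while ZFP57, a germline and embryonic KRAB gene, was open in none. By the same rule 2 of the 25 lost HDAC6 with the inhibitor, against 15.4% of all genes, TRIM28 and MORC2, a helper of H3K9 methylation. Acetylated H3 was gained at 10 of the 25, against 20.4%, among them the H3.3 genes H3-3A and H3-3B, the heterochromatin protein gene CBX1 and the DNA methylation cofactor gene UHRF1. In the other 4 comparisons none was lost or gained.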

How the data were processed

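Peak lists of 32 MDA-MB-231 samples, called per sample, were grouped by the sample labels. Per the submitters' processing notes, which give no roles, the tools were MACS2 2.2.7.1, Bowtie2 2.4.4, Trim Galore 0.6.7, ChIPseeker 1.28.2, SAMtools 1.13 and deepTools 3.5.1, and the build hg38. The deposited lists have no header, with 10 columns in ATAC and 9 in the other lists, in the order of MACS2 output. The deposited fold of a peak over background is a linear ratio, made by the authors. The deposited −log10 p and −log10 q values and the deposited score are the authors' as well. The files hold no counts, so depth and its precision are unknown. Replicate 1 of each parental ChIP and ATAC group and both CUT&Tag lists keep 94.7% to 99.9% of their peak numbering, and the other lists keep 0.103% to 88.4%, so that the lists do not share one cutoff. CUT&Tag replicate 2 carries a hairpin-type prefix in its peak names and was kept under its label.

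Lines at the same interval were merged, chromosomes 1 to 22 and X were kept, and fold percentiles were taken within each list (Python 3.11.15, pandas 2.3.3, numpy 2.4.6, scipy 1.17.1). Gene positions, starts and promoter sequences are RefSeq's; 15812 of 19974 genes had an annotated start, and for the rest both ends were used. The members and lists were chosen with earlier results of these data known. Named genes were, per comparison, up to 8 lost and 8 gained members by mean percentile, up to 10 with HDAC6 in all 4 untreated lists, the 5 highest for ATAC, PolII and PolII body coverage, up to 10 closed members by position, HDAC6 and the corepressor list. Numbers of members were compared by exact permutation over lists; the counting was tested on simulated lists. No test of one gene set against another was made. The planned count of zinc fingers in the proteins was not run, and protein sequences were not used here.

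Same-numbered ATAC control and inhibitor lists deviated together over all genes (correlations 0.555, 0.215 and 0.212). Crossing replicates 2 and 3 gave 0.242 and 0.222, so over all genes only replicate 1 stood apart and numbers 2 and 3 were not paired. Over members alone these 2 numbers gave 0.471 and 0.424, and crossed 0.381 and 0.253. The replicate 1 lists keep 99.7% of their peak numbering and the others 3.90% to 21.3%, and the part of the cutoff was not tested. Same-numbered PolII control and inhibitor lists correlated at 0.744, with 2 pairs only.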

Additional observations from a re-analysis of the deposited data

How the results depend on the processing

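Read depth is unknown, each group has 2 or 3 lists, and the lists were cut at different thresholds, which limits every count. Over the 6 comparisons, 23 recomputed counts of lost or gained members moved by over 1.5 times and 12 differences changed sign. Other differences shrank with lists cut to equal length, that in HDAC6 members from -46.5 to 0 at 235 peaks and that in acetylated H3 from 82 to 7 at 1418. Lists that short can hold few starts of any gene. No test could reach 0.05 at these group sizes. The cause of these changes was not tested. With only peaks of −log10 q of at least 5, HDAC6 was lost and acetylated H3 gained at 0 members, against 0% of all genes. This floor removed every such call in the genome. The acetylated H3 excess over other genes changed by -0.215 points. PolII was lost with the inhibitor at 1 member, 0.602% against 0.155%, and gained after knockdown at 18, 10.8% against 2.84%. ATAC was lost after knockdown at 1 member, 0.602% against 0.16%. With a window of 3 kb HDAC6 was lost at 11 members and the ATAC inhibitor difference was 0.667 members. With lists cut to 235 peaks HDAC6 was lost at 0 members, and with 1418 peaks acetylated H3 was gained at 1. With ATAC lists cut to 42113 peaks in the inhibitor comparison, 0 members were lost and the change in excess was 3.07 points. After knockdown, at 25878 peaks, the change in ATAC excess was -1.34 points. With either gene end in place of the start, the PolII inhibitor difference was 1 member and PolII was lost at 1 after knockdown. Shares of all genes are not given for the counts with 3 kb windows, cut lists or gene ends, which thus describe members alone. The alternative of members with an annotated start alone was chosen after seeing the data and moved no count by over 1.5 times.

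Leaving out each list in turn gave 7 to 70 members for HDAC6 lost and 47 to 95 for acetylated H3 gained. The HDAC6 counts follow from the control lists alone. Shares of all genes are not given for these ranges or for the other ranges of lost and gained members below. For PolII with the inhibitor the difference ran from -11 to 9 members, with 0 to 2 lost and 0 to 1 gained, and after knockdown 0 to 2 were lost. For ATAC with the inhibitor the difference ran from -3 to 2 members (0.833 without inhibitor replicate 2), with 1 to 2 lost, and the change in excess from -1.74 to 0.34 points (0.259 without inhibitor replicate 2). PolII with the inhibitor gave 7 without inhibitor replicate 1. For ATAC after knockdown the difference ran from -0.833 to 5.17 members, with 0 to 1 gained.

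With the replicate number as a block the mean differences in members were the same, -46.5 for HDAC6, 82 for acetylated H3, -1 and 2.5 for PolII and -0.667 and 2 for ATAC, with exact permutation p of 0.5, 0.5, 1, 0.5, 1 and 0.75, and no call changed. Same-numbered lists of the HDAC6 (0.115), acetylated H3 (0.0278), PolII knockdown (-0.00423) and ATAC knockdown comparisons (0.00822, -0.0474 and -0.022) were not taken as pairs.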
